A study of Mus musculus with 30 samples.

Results

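Genes for protein folding, quality control and secretion in the endoplasmic reticulum (ER) were followed through mouse spleen and lymph node. The set held 46 genes of 24957 in each deposited table. It was chosen by function, as a list of named ER chaperones, disulfide isomerases, degradation factors, translocation and glycosylation subunits, transport factors and stress regulators. Earlier results of these data were known when the list was made, so its counts describe these genes and are no independent test of the pathway. All 46 were present in the spleen and the lymph node table, and all 46 passed the filter on low values, so none is left out of the counts given here. Bulk poly(A) RNA was sequenced in 30 libraries, 18 from spleen and 12 from lymph node, and is given as RPKM, a read density that corrects for transcript length and for the number of mapped reads. Mice were wild type (WT), which the titles call FVB like the inbred strain, or knockouts for one of the peptidylarginine deiminases, which turn arginine residues into citrulline. Pad2-/- mice lack Padi2 and Pad4-/- mice lack Padi4. Control and imiquimod spleens came from each genotype, with 3 libraries per genotype and agent. Imiquimod activates Toll-like receptor 7. All lymph nodes came from treated mice, 4 libraries for each genotype. The study's stated aim is to set the treated spleens and lymph nodes of the knockouts against those of treated WT mice. Age, sex, dose and duration of treatment are not given in the labels used here. The extract protocol speaks of treated mice only. Every comparison with control rests on the agent label, which is control for 9 spleen libraries. Separate animals are not stated for the replicates, and the p-values cover the spread among these libraries alone, part of which may be technical.

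Proteins that are to be secreted or placed in membranes enter the ER through the Sec61 channel, lose their signal peptide, receive N-linked sugars and fold with the help of chaperones and disulfide isomerases. Molecules that fail to fold are sent back to the cytosol for degradation, and those that succeed leave in COPII-coated vesicles. When unfolded protein builds up, the ER sensors IRE1 (Ern1), ATF6 and PERK start the unfolded protein response. IRE1 splices the Xbp1 mRNA into the form that encodes an active transcription factor, and ATF6 is cleaved into another, and both raise the genes of the folding and secretion machinery. Antibody-secreting plasma cells, which form in spleen and lymph node, are known for a large ER and depend on XBP1. These RPKM values are summed per gene and do not separate spliced from unspliced Xbp1.

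The promoters of part of the set carry the ER stress response elements, to which ATF6 and XBP1 are known to bind together with NF-Y. Promoter windows from 250 bases before to 50 after the start were taken from RefSeq (GRCm38.p6) for 36 of the 46 genes. For 2 genes with matches the window lies inside the listed gene span, at another start. These are Sec24d (window chr3:123267246-123267545, gene from 123264801) and Krtcap2 (window chr3:89246223-89246522, gene from 89245904). The windows were searched on both strands. The ER stress response element (ERSE), spelled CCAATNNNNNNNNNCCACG, was in 9 of the 36 promoters, which is 25.0%, and in 37 of 27025 promoters of all genes, which is 0.137%. The second element (ERSE-II), spelled ATTGGNCCACG, was in 3 of the 36 (8.33%) and in 0.0444% of all promoters. The XBP1 element TGACGTGG was in 1 of the 36 (2.78%) and in 0.714% of all. Its core ACGTG, which overlaps that element, was in 15 of the 36 (41.7%) and in 21.8% of all. These are matches of letters and show no binding. The set was chosen by function and includes ER stress genes, so these shares describe it and are no independent test of enrichment. The matched sites are given here because they show which genes share the element, with the fixed bases in capitals and read in the direction of the spelling above.
Hspa5, chr2:34772025-34772043, plus strand: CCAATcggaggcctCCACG
Calr, chr8:84847075-84847093, plus strand: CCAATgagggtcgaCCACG
Derl3, chr10:75893242-75893260, minus strand: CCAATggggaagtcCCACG
Hsp90b1, chr10:86705638-86705656, minus strand: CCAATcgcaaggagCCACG
Hsp90b1, chr10:86705533-86705551, plus strand: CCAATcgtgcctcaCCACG
Canx, chr11:50325800-50325818, minus strand: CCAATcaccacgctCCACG
Pdia6, chr12:17266491-17266509, plus strand: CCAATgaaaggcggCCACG
Dnajc3, chr14:118937827-118937845, plus strand: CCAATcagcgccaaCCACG
Creld2, chr15:88819520-88819538, minus strand: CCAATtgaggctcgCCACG
Syvn1, chr19:6046532-6046550, plus strand: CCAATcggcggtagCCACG
Krtcap2, chr3:89246490-89246500, plus strand: ATTGGaCCACG
Herpud1, chr8:94386377-94386387, plus strand: ATTGGgCCACG
Dnajb11, chr16:22857852-22857862, plus strand: ATTGGcCCACG
Sec24d, chr3:123267470-123267477, plus strand: TGACGTGG

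Whole upstream windows are shown for 3 of these genes that behaved differently under imiquimod, as described further on: Hspa5, with a log2 change of 0.99 in WT spleen, Derl3, with the largest change of the set, and Syvn1, which fell. Each run is the 250 bases before the gene's start on the plus strand, with the ERSE match in capitals. In Derl3 the match lies on the opposite strand and so reads CGTGG to ATTGG from left to right.
Hspa5, chr2:34771840-34772089: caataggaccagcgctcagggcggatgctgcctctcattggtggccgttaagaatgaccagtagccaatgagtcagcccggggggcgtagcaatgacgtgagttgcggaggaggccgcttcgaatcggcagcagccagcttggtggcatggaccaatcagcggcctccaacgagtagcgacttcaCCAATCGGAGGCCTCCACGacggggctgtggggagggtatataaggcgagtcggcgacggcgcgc
Derl3, chr10:75893148-75893397: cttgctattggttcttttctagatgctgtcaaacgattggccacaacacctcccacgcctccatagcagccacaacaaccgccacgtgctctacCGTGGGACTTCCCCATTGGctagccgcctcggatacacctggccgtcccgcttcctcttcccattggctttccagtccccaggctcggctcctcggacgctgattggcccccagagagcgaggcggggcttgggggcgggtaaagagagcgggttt
Syvn1, chr19:6046326-6046575: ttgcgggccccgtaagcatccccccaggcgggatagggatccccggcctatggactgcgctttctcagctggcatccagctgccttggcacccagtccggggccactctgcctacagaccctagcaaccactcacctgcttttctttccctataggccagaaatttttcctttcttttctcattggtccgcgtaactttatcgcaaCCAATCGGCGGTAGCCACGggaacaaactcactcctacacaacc

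The targeted genes were read first, as a check of the labels. Padi2 was at 9.77 to 10.5 RPKM in WT control spleens and 1.09 to 1.20 in Pad2-/- ones, and at 4.74 to 5.23 and 0.468 to 0.673 under imiquimod. In lymph node its range was 5.18 to 5.77 in WT and 0.425 to 1.01 in Pad2-/-. Padi4 was at 1.20 to 2.26 RPKM in WT control spleens and 0.0975 to 0.156 in Pad4-/- ones, and at 8.16 to 25.3 and 0.0693 to 0.259 under imiquimod. In lymph node, libraries 3 and 4 labelled Pad4-/- held 0.607 RPKM of Padi4, just under the WT range of 0.679 to 1.05, and 1.1703, above it, while libraries 1 and 2 held 0.0958 and 0.131. The lymph node group is therefore called the libraries labelled Pad4-/-. B and T cell marker genes, which define these tissues, were high in every library: the mean log2(RPKM + 0.5) of 9 B cell markers was 4.92 or more and that of 9 T cell markers 4.92 or more. Between 10905 and 12198 genes reached 1 RPKM in a library, and the read depth is unknown. The 10 most abundant genes took 23.9% and 22.5% of total RPKM in Pad2-/- imiquimod spleens 1 and 3 with 16.4% in Pad4-/- imiquimod spleen 1, against 7.22% to 11.4% in the other spleens. Pad2-/- lymph node libraries 3 and 4 stood apart in the set, and their values are given singly.

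In untreated WT spleen the set spanned a wide range of levels. The lowest mean RPKM values over 3 libraries were 2.23 for Sec24d, a COPII coat subunit, 2.94 for Ern1, the IRE1 sensor, and 4.00 for Derl3, a channel protein of ER degradation. The highest were 102 for Pdia3, a disulfide isomerase, 155 for Hspa5, the main ER chaperone BiP, 171 for Hsp90b1, the ER form of HSP90, and 217 for Calr, the lectin chaperone calreticulin. The mean log2(RPKM + 0.5) over the 46 genes in control spleens was 4.92 ± 0.046 (SD, n = 3) for WT, 4.91 ± 0.028 for Pad2-/- and 4.87 ± 0.0033 for Pad4-/-. Treated spleens had 5.98 ± 0.18 for WT, 5.69 ± 0.16 for Pad2-/- and 5.99 ± 0.17 for Pad4-/-. Every imiquimod spleen lay above every control spleen, and the spread between libraries was wider under imiquimod. As a share of a library's total RPKM, the set held 0.529% to 0.553% in WT control and 0.784% to 1.08% in WT imiquimod spleens. The share was 0.512% to 0.539% and then 0.612% to 0.796% in Pad2-/-, and 0.518% to 0.519% and then 0.831% to 1.15% in Pad4-/-. In lymph node the mean log2 level was 6.09 ± 0.22 (SD, n = 4) for WT, 6.16 ± 0.38 for Pad2-/- and 5.84 ± 0.25 for the libraries labelled Pad4-/-. The tissues come from separate tables and were not tested against each other.

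**Figure D1:**
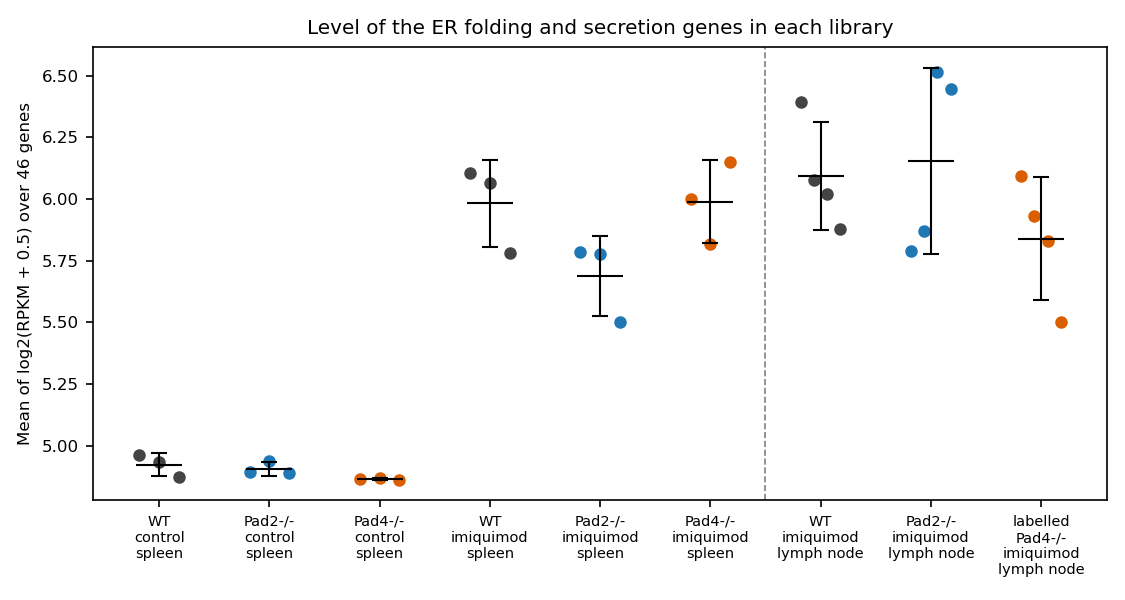
Mean log2(RPKM + 0.5) over the 46 genes in each of the 30 libraries (points), with the group mean and SD (lines), by genotype, agent and tissue; the axis does not start at 0. Control spleens lie between 4.86 and 4.96 and imiquimod spleens between 5.503 and 6.15, and in lymph node the Pad2-/- libraries fall into a high and a low pair.

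The first comparison asks how the spleen of each genotype responded to imiquimod. The set rose almost as a whole. In WT, 43 of 46 genes were higher, 1 was lower and 2 did not pass (limma, adjusted p threshold 0.05 over all genes tested), against a background in which 73.5% of 11982 genes passed, 40.3% higher and 33.2% lower. In Pad2-/- the counts were 41 higher, 1 lower and 4 not passed, with 73.0% of all genes passed, 36.3% higher and 36.7% lower. In Pad4-/- they were 44 higher, 1 lower and 1 not passed, with 70.0% of all genes passed, 33.9% higher and 36.1% lower. The median log2 change of the set was 0.98 in WT, 0.77 in Pad2-/- and 1.02 in Pad4-/-, where the median of all genes was 0.065, -0.020 and -0.037 in that order. In all, 41 genes rose in all 3 genotypes, and the gene that fell in each was Syvn1. Libraries of control and imiquimod spleens did not overlap for 44 of 46 genes in WT, where 78.1% of all genes tested did not, for 43 in Pad2-/- (75.6% of all) and for 46 in Pad4-/- (77.1% of all). Within bulk tissue, a change in the number of cells of a type and a change in RNA per cell cannot be told apart.

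Other scalings moved these values. Quantile normalization moved the median of all genes to -0.130 in WT, -0.131 in Pad2-/- and -0.123 in Pad4-/-, and the share of higher genes among those that passed from 54.8%, 49.7% and 48.4% to 41.8%, 41.1% and 40.1%. With haemoglobin genes removed and libraries rescaled, the medians were -0.217, -0.237 and -0.302 and the shares 37.1%, 35.5% and 30.6%. The median of the set stayed above 0 in each, at 0.69, 0.49 and 0.80 with quantile normalization and 0.69, 0.54 and 0.74 with haemoglobin removed. Derl2 and Sec23b changed sign in WT in the last of these, as given under the genes.

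Marker genes of several cell types moved in the same spleens. In WT, 6 of 11 plasma cell genes in the table rose and 3 fell, and their mean log2 level went from 3.87 to 3.99 in controls to 4.18 to 5.10 under imiquimod, their summed RPKM from 448 to 514 to 697 to 1834. Jchain, the joining chain of secreted antibody, was at 41.6 to 57.9 RPKM in WT controls and at 1129, 968 and 352 under imiquimod. Summed plasma cell RPKM went from 506 to 547 to 663 to 1083 in Pad2-/- and from 492 to 524 to 1404 to 2252 in Pad4-/-. No plasma cell gene of the list was at 0 throughout a group. The mean log2 level of the 9 B cell genes went from 7.87 to 6.04 in WT, where all 9 fell, from 7.89 to 5.84 in Pad2-/- and from 7.88 to 6.55 in Pad4-/-. That of the 9 T cell genes went from 6.23 to 5.07 in WT, where all 9 fell, from 6.22 to 5.41 in Pad2-/-, where 7 fell, and from 6.43 to 5.64 in Pad4-/-, where 8 fell. All 10 erythroid, all 8 granulocyte precursor, all 10 monocyte and macrophage and all 12 proliferating cell genes rose in WT. The mean level of each of these lists was also higher under imiquimod in both knockouts. The erythroid mean went from 3.73 to 7.08 in WT, from 4.70 to 7.83 in Pad2-/- and from 3.95 to 6.66 in Pad4-/-. Whether these shifts take part in the rise of the ER genes was not tested.

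**Figure D2:**
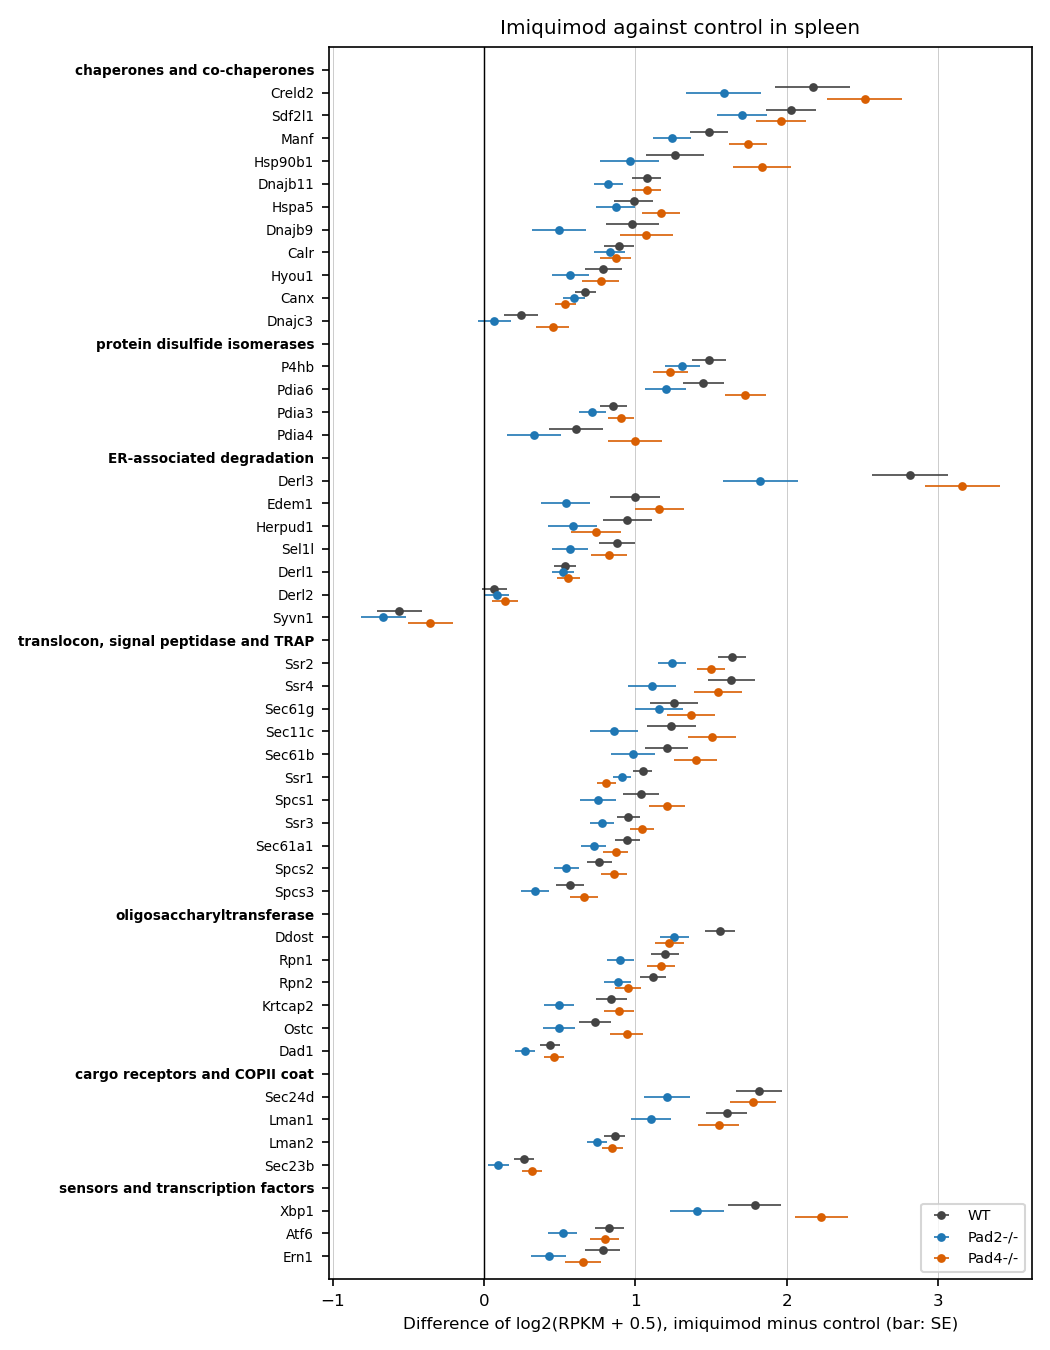
Difference in log2(RPKM + 0.5) between imiquimod and control spleens for each of the 46 genes, ordered by role; points are the fitted differences in WT, Pad2-/- and Pad4-/- and bars their standard errors. All but Syvn1 lie above 0 in each genotype, and Derl3 lies farthest to the right.

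Chaperones and their helpers rose in 10 of 11 cases in WT and Pad2-/- and in 11 of 11 in Pad4-/-, with median log2 changes of 0.99, 0.83 and 1.07. Hspa5 binds unfolded chains and holds the sensors inactive in unstressed cells. It was at 159, 153 and 153 RPKM in WT controls and at 336, 322 and 269 under imiquimod. In Pad2-/- it was at 133, 148 and 135 and then 290.4, 249 and 227, and in Pad4-/- at 129, 126 and 127 and then 329, 225 and 318. Within each genotype the treated spleens all exceeded the controls, with library 3 lowest in WT and Pad2-/- and library 2 lowest in Pad4-/-. The log2 change was 0.99 ± 0.13 (SE) in WT, adjusted p = 5.46e-06 (limma), 0.87 ± 0.13 in Pad2-/- and 1.169 ± 0.13 in Pad4-/-.

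Creld2, an ER stress-induced protein with disulfide isomerase activity, had the largest change of the chaperone group in WT and Pad4-/-, and in Pad2-/- the next after Sdf2l1. It was at 28.3, 26.7 and 23.6 RPKM in WT controls and at 155, 141 and 78.0 under imiquimod, a 4.76-fold higher mean. The Pad2-/- values were 23.9, 28.0 and 24.8 and then 98.5, 82.1 and 57.6, and those of Pad4-/- 27.2, 23.95 and 23.1 and then 167, 99.7 and 177. WT library 3 and Pad4-/- library 2 held much less than the others of their genotype, yet stayed above every control. The log2 change was 2.17 ± 0.25 in WT (adjusted p = 1.66e-06, limma), 1.58 ± 0.25 in Pad2-/- and 2.52 ± 0.25 in Pad4-/-. Sdf2l1, which works with the Hspa5 complex, rose by 2.03 ± 0.16 log2 in WT, from 28.6 to 119 RPKM, by 1.71 in Pad2-/-, from 26.8 to 89.2, and by 1.96 in Pad4-/-, from 29.2 to 116. Hsp90b1, which folds Toll-like receptors and integrins among its clients, rose by 1.26 in WT, from 171 to 421 RPKM, and by 1.84 in Pad4-/-, from 139 to 513. Manf, a secreted stress-induced factor, rose by 1.49, and Dnajb11 and Dnajb9, co-chaperones of Hspa5, by 1.07 and 0.98 in WT. The lectin chaperones Calr and Canx, which hold newly glycosylated proteins, rose by 0.89 and 0.67. Dnajc3, a co-chaperone that also restrains PERK, did not pass in WT, with a change of 0.24 and adjusted p = 0.0561, nor in Pad2-/-, with 0.07. It passed in WT without imiquimod library 3 (0.38, adjusted p = 0.00334), the lowest over its alternatives, which ran to 0.828. Dnajb9 rose by 0.50 in Pad2-/-, and this call was lost without control library 2 (adjusted p = 0.0573), imiquimod library 1 (0.0504) or imiquimod library 2 (0.0680), within 0.000973 to 0.178 over all alternatives.

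All 4 protein disulfide isomerases, which form and reshuffle disulfide bonds, rose in WT and Pad4-/-, and 3 of 4 in Pad2-/-, with medians of 1.15, 1.11 and 0.96. P4hb, the archetypal enzyme of the family, was at 45.2, 46.1 and 44.0 RPKM in WT controls and 108, 155 and 123 under imiquimod. In Pad2-/- it was at 43.7, 45.4 and 44.3 and then 112, 130 and 94.2. The Pad4-/- values were 47.0, 46.03 and 44.6 and then 111, 106 and 107, so that this genotype had the narrowest treated values. Groups did not overlap in any genotype, and the log2 change was 1.49 ± 0.11 in WT (adjusted p = 2.43e-08, limma), 1.31 ± 0.11 in Pad2-/- and 1.23 ± 0.11 in Pad4-/-. Pdia6, which acts on the IRE1 sensor as well as on clients, rose by 1.45, 1.20 and 1.73. Pdia4 rose by 0.61 in WT and 0.997 in Pad4-/- and had 0.33 with adjusted p = 0.109 in Pad2-/-, where it passed without imiquimod library 3 (0.48, adjusted p = 0.0323, with 0.0323 to 0.925 over all alternatives). In WT its call was lost with quantile normalization (0.20, adjusted p = 0.349) and with haemoglobin removed (0.31, adjusted p = 0.136), and the adjusted p ran from 0.000165 to 0.349.

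The degradation factors split. In each genotype 5 of 7 rose and 1 fell, with medians of 0.88, 0.54 and 0.74. Derl3, a derlin known for its expression in secretory cells, showed the largest change of all 46 genes in each genotype. It was at 4.48, 4.64 and 2.89 RPKM in WT controls and 43.7, 31.7 and 20.7 under imiquimod, 8.01-fold higher on average. In Pad2-/- the values were 4.63, 5.34 and 4.49 and then 22.5, 19.4 and 14.04, 3.87-fold higher. In Pad4-/- they were 3.71, 3.71 and 4.53 and then 41.2, 29.8 and 50.3, 10.1-fold higher. The lowest treated library of any genotype, in Pad2-/-, was still above every control. The log2 change was 2.82 ± 0.25 in WT (adjusted p = 1.10e-07, limma), 1.83 ± 0.25 in Pad2-/- and 3.16 ± 0.25 in Pad4-/-. Its relatives did not follow to that extent: Derl1 rose by 0.53, 0.52 and 0.56, and Derl2 did not pass in any genotype, with 0.07, 0.08 and 0.14. With haemoglobin removed Derl2 was lower in WT (-0.21, adjusted p = 0.0135), the only alternative in which it passed there.

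Syvn1 encodes HRD1, the ubiquitin ligase at the centre of the degradation complex, and Sel1l its partner. Syvn1 was at 46.0005, 45.5 and 44.6 RPKM in WT controls and 40.5, 25.7 and 27.4 under imiquimod. It was at 42.5, 45.3 and 45.3 and then 26.02, 31.7 and 25.96 in Pad2-/-, and at 50.7, 46.02 and 46.9 and then 31.1, 36.4 and 45.7 in Pad4-/-. All treated libraries lay below their controls, though WT library 1 and Pad4-/- library 3 came close. The fall was -0.56 ± 0.15 log2 in WT (adjusted p = 0.00318, limma), -0.67 ± 0.15 in Pad2-/- (adjusted p = 0.000925) and -0.36 ± 0.15 in Pad4-/- (adjusted p = 0.0443). The call in Pad4-/- was lost without any of control libraries 1, 2 and 3 (adjusted p = 0.121, 0.0641 and 0.0744) or imiquimod libraries 1 and 2 (0.210 and 0.0927), and it ran from 0.00236 to 0.210 over all alternatives, 9 of 18 of which kept it. Sel1l rose by 0.88, 0.57 and 0.83 in the same spleens. Edem1, which helps send misfolded glycoproteins to degradation, rose by 0.997, 0.54 and 1.16, and Herpud1, which organises the complex, by 0.95, 0.59 and 0.74. In Pad2-/- the calls of Edem1 and Herpud1 were lost with quantile normalization (adjusted p = 0.0607 and 0.130), within ranges of 0.000792 to 0.0996 and 0.000380 to 0.130.

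All 11 genes of the translocon, the signal peptidase and the TRAP complex rose in each genotype, with medians of 1.05, 0.86 and 1.21. Ssr2, a subunit of TRAP, which helps chains through the channel, was at 36.5, 35.6 and 35.5 RPKM in WT controls and 107, 118 and 113 under imiquimod. In Pad2-/- it was at 35.5, 35.7 and 31.8 and then 90.9, 85.7 and 70.6, and in Pad4-/- at 34.8, 35.6 and 36.0 and then 98.6, 92.5 and 114. The controls of all genotypes lay close together, and the Pad2-/- treated spleens were all under the lowest treated library of the other genotypes. The log2 change was 1.64 ± 0.09 in WT (adjusted p = 8.21e-10, limma), 1.24 ± 0.09 in Pad2-/- and 1.501 ± 0.09 in Pad4-/-. The partner subunit Ssr4 rose by 1.64, 1.11 and 1.55. The channel subunits Sec61g, Sec61b and Sec61a1 rose by 1.25, 1.21 and 0.95 in WT, and the signal peptidase subunits Sec11c and Spcs3 by 1.24 and 0.57.

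The oligosaccharyltransferase, which attaches sugar trees to entering chains, was represented by 6 subunits, and all 6 rose in each genotype, with medians of 0.98, 0.69 and 0.95. Ddost was at 43.6, 41.5 and 38.3 RPKM in WT controls and 121, 122 and 123 under imiquimod, the tightest treated values among the genes listed by library. It was at 40.0, 41.8 and 44.6 and then 120.2, 95.9 and 90.1 in Pad2-/-, and at 47.2, 43.7 and 42.5 and then 105, 95.3 and 114 in Pad4-/-. No treated library overlapped its controls. The log2 change was 1.56 ± 0.10 in WT (adjusted p = 2.42e-09, limma), 1.26 ± 0.10 in Pad2-/- and 1.22 ± 0.10 in Pad4-/-. Dad1, the smallest riser of the group, changed by 0.44, 0.27 and 0.46, and its call was lost in WT (adjusted p = 0.0903) and Pad2-/- (0.575) with haemoglobin removed, the highest values over the alternatives.

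Of the 4 genes for export from the ER, 4 rose in WT and Pad4-/- and 3 in Pad2-/-, with medians of 1.23, 1.20 and 0.93. Sec24d, which selects cargo in the COPII coat, was at 2.17, 2.43 and 2.08 RPKM in WT controls and 11.2, 9.94 and 6.74 under imiquimod. It was at 2.84, 2.35 and 2.72 and then 7.30, 7.21 and 5.84 in Pad2-/-, and at 2.65, 2.39 and 2.61 and then 9.42, 8.81 and 11.8 in Pad4-/-. The groups were apart in each genotype, and the log2 change was 1.82 ± 0.15 in WT (adjusted p = 5.96e-08, limma), 1.21 ± 0.15 in Pad2-/- and 1.78 ± 0.15 in Pad4-/-. Lman1, a cargo receptor for glycoproteins, rose by 1.60, 1.10 and 1.55. Sec23b, another coat subunit, rose by 0.26 in WT and 0.32 in Pad4-/- and had 0.09 in Pad2-/- with adjusted p = 0.212. Its WT value was -0.02 with haemoglobin removed (adjusted p = 0.781, the highest over its alternatives, from 0.00115).

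The 3 regulators, the sensor genes Atf6 and Ern1 and the factor Xbp1, rose in each genotype, with medians of 0.83, 0.52 and 0.80. Xbp1 was at 39.5, 36.7 and 34.6 RPKM in WT controls and 148, 154 and 93.7 under imiquimod. In Pad2-/- it was at 34.9, 39.2 and 38.7 and then 107, 116 and 81.4, and in Pad4-/- at 33.8, 34.2 and 33.6 and then 173, 127 and 189. Its lowest treated libraries were again library 3 in WT and Pad2-/- and library 2 in Pad4-/-. The log2 change was 1.79 ± 0.18 in WT (adjusted p = 3.44e-07, limma), 1.41 ± 0.18 in Pad2-/- and 2.23 ± 0.18 in Pad4-/-. Atf6 rose by 0.83, 0.52 and 0.80 and Ern1 by 0.78, 0.43 and 0.65, both from levels under 10 RPKM.

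**Figure D3:**
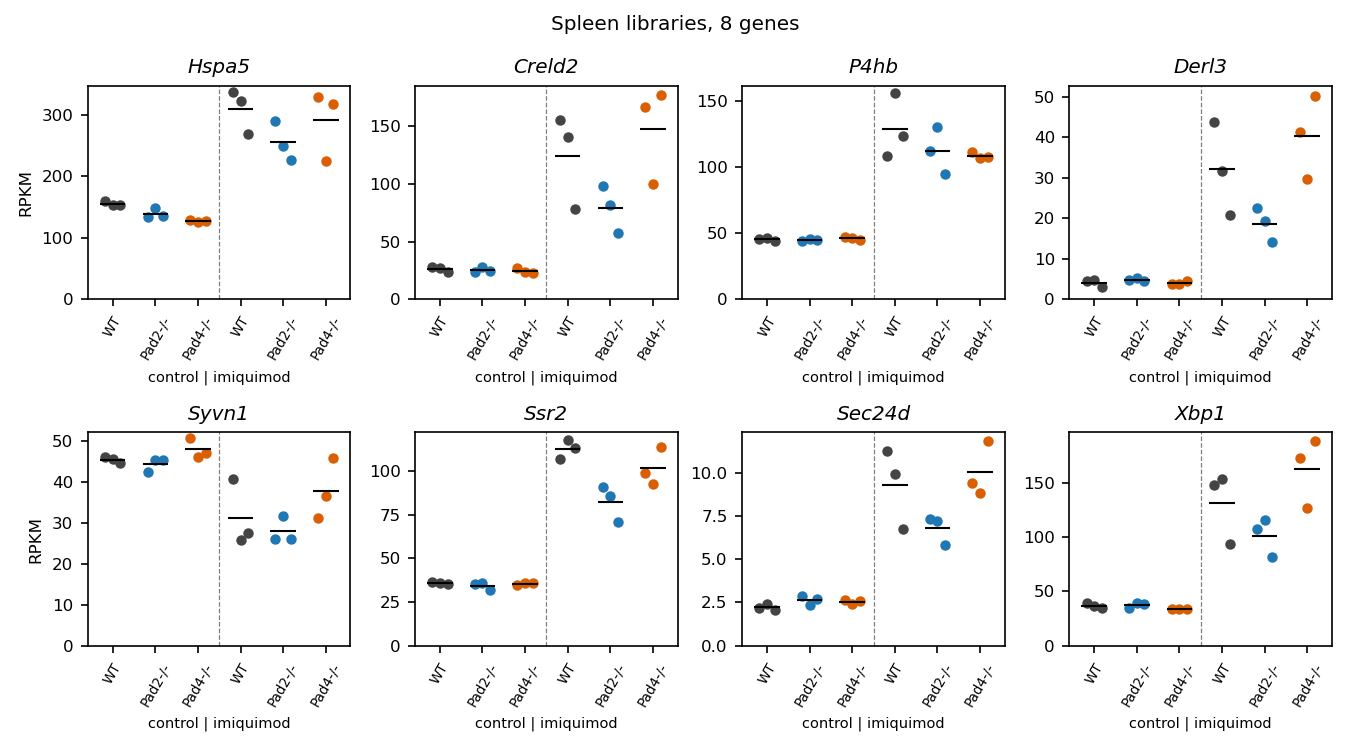
RPKM of 8 genes in each of the 18 spleen libraries (points) with the group mean (short line), controls left and imiquimod right of the dashed line in each panel; axes start at 0 and differ between panels. Syvn1 is the only gene of the 8 with treated means below the controls, and the treated libraries spread more widely than the controls.

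Treated libraries of a genotype were ordered alike across the set. WT library 3 had the lowest of 3 values for 37 of 46 genes, Pad2-/- library 3 for 42 and Pad4-/- library 2 for 39, while Pad4-/- library 3 was highest for 39. The same orders over all genes are not given here. The mean log2 level of the plasma cell genes was 5.10, 4.76 and 4.18 in WT libraries 1 to 3, 4.36, 4.65 and 4.12 in Pad2-/- and 5.02, 4.99 and 5.47 in Pad4-/-. In each genotype its lowest library was the one in which most ER genes were lowest. Over the 9 imiquimod spleens, Pearson's r between a gene's deviation from its group mean and that of the other 45 averaged had a median of 0.85 and ran from -0.15 to 0.98. These points share their libraries and the value is a description.

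The response was also read beside the promoter matches. The 9 genes listed above with the element had a median log2 change of 0.99 in WT and ran from -0.56 for Syvn1 to 2.82 for Derl3, with 7 higher and 1 lower. The 27 genes whose promoter window held no ERSE, among them those with ERSE-II or TGACGTGG, had a median of 0.997 and ran from 0.07 to 2.03, with 26 higher. For Pad2-/- the medians were 0.87 and 0.75, for Pad4-/- 1.169 and 1.04. No test was made of this split.

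Beyond the set, 109 further genes of the same pathways were listed by function, also with earlier results known, and 104 were tested in spleen. In WT 72 rose and 11 fell, with a median of 0.51, in Pad2-/- 68 and 15 with 0.32, and in Pad4-/- 63 and 15 with 0.33. Of all genes tested 40.3% rose and 33.2% fell in WT, 36.3% and 36.7% in Pad2-/-, and 33.9% and 36.1% in Pad4-/-. The counts of the lists that follow stand beside these shares. Of 17 genes of the PERK branch and the integrated stress response, 13 rose and 1 fell in WT, 14 and 1 in Pad2-/-, and 9 and 1 in Pad4-/-. Asns, the asparagine synthetase gene driven by ATF4, rose by 3.66 ± 0.36 log2 in WT, from 1.93 to 31.1 RPKM, and Nupr1, a stress-induced nuclear protein, by 2.57, from 1.81 to 13.5. The gene that fell in WT was Eif2ak3, which encodes PERK itself (-0.56) and is named after its value was seen. Of 19 further folding and oxidation genes 16 rose and 1 fell in WT, led by Fkbp11, a prolyl isomerase of secretory cells (2.80, from 1.66 to 14.96 RPKM), and Txndc5, a disulfide isomerase (1.64). The counts were 15 and 1 in Pad2-/- and 14 and 0 in Pad4-/-.

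Of 19 further targeting and translocation genes 13 rose and 0 fell in WT, led by Stt3a, the catalytic subunit that adds sugars (0.93), and Srp19 of the signal recognition particle (0.93). The counts were 12 and 3 in Pad2-/- and 13 and 2 in Pad4-/-. Of 16 further degradation genes 12 rose and 1 fell in WT, led by Edem2 (1.27) and Vcp, the ATPase that pulls proteins out of the ER (0.96), with 10 and 1 in Pad2-/- and 10 and 3 in Pad4-/-. Of 22 transport genes 13 rose and 5 fell in WT, led by Tmed3 (1.36) and Arfgap3 (1.35), with 13 and 6 and then 12 and 6 in the knockouts. Those that fell in WT included the COPII genes Sec24b (-0.57), Sec24c (-0.46) and Sec23a (-0.37), named after their values were seen, while Sec24d rose. Of 11 further regulators 5 rose and 3 fell in WT, led by Bak1 (1.45), a pore-forming death protein, and Creb3l2 (1.13), a membrane-bound transcription factor, with 4 and 3 and then 5 and 3 in the knockouts. The WT counts of these regulators are near the shares of all genes, of which 40.3% rose and 33.2% fell.

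The second comparison asks whether the knockouts differed from WT before treatment. In control spleen 0 of 46 genes passed in Pad2-/- against WT, where 0.142% of all genes did, and 0 of 46 in Pad4-/- against WT, where 0.150% did (limma). At an unadjusted p under 0.05 the counts were 0 and 3 of 46, where those of all genes were 1.96% and 6.69%. The median differences were -0.04 and -0.05 log2, against 0.03 and 0.05 for all genes. Hspa5 was at 127 ± 1.37 RPKM (SD, n = 3) in Pad4-/- and 155 ± 3.79 in WT, without overlap, a difference of -0.28 ± 0.13 with adjusted p = 0.737 (limma). With only the compared groups in the fit, 8 genes were lower in Pad4-/-, Hspa5, Hsp90b1, Canx, Manf, Pdia6, Sec61g, Spcs1 and Ostc, and 3.38% of all genes were. With libraries weighted by their fit to the model, 4 were lower, Hspa5, Canx, Ostc and Sec23b, and 3.39% of all. These weights (limma array weights) come from the same expression values and use no separate measure of quality. None of the other pathway genes passed in either knockout.

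The third comparison, the one the series names, sets imiquimod-treated knockouts against imiquimod-treated WT. In Pad2-/- spleen 1 of 46 genes passed, Ssr2, where 0.484% of all genes passed and 0.334% were lower. Its level was 82.4 ± 10.6 RPKM (SD, n = 3) in Pad2-/- and 113 ± 5.34 in WT, without overlap, a difference of -0.46 ± 0.09 log2 with adjusted p = 0.0383 (limma). The call was lost without WT library 1 (adjusted p = 0.0983), WT library 3 (0.0979) or Pad2-/- library 3 (0.187). It was also lost with quantile normalization (0.0782), median-ratio scaling (0.113), only the compared groups (0.925), no intensity trend (0.0555), the replicate block (0.0693) and haemoglobin removed (0.204). Another alternative left out the 3 spleens in which the 10 most abundant genes took over 15% of total RPKM. As 1 Pad2-/- imiquimod library remained, no call is given for it. With library weights the adjusted p was 0.000518, and 8 of 18 alternatives kept the call.

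Differences in the remaining genes leaned the same way without passing. Of 46, 45 were below 0 in Pad2-/-, the exception being Sec61g at 0.01, and the median was -0.27 against -0.06 for all genes. The genes moved together across the treated spleens (median r 0.85, given above), so these are not 45 separate observations. The share of all genes below 0 is not given here. At an unadjusted p under 0.05 there were 32, where 15.6% of all genes were. The nearest to the threshold were the oligosaccharyltransferase subunits Krtcap2, at 72.7 ± 9.94 RPKM against 97.3 ± 8.41 (-0.42, adjusted p = 0.0658), Dad1 (-0.26, 0.0837) and Rpn1 (-0.34, 0.0877). Derl3 had the lowest value, -0.73 ± 0.25 with adjusted p = 0.165, at 18.6 ± 4.28 against 32.04 ± 11.5 RPKM with overlapping libraries. With libraries weighted by their fit to the model, 40 of the 46 were lower, as were 16.5% of all genes. Leaving out single libraries gave 2 lower genes without WT library 2 (4.76% of all), 3 without Pad2-/- library 1 (0.442%) and 5 without Pad2-/- library 2 (4.16%). In the same comparison 10 of 11 plasma cell genes were below 0, with a median of -0.30, and the 10 most abundant genes took the shares of Pad2-/- libraries 1 and 3 given above. The part of either in these differences was not tested.

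In Pad4-/- spleen under imiquimod 1 of 46 passed, Canx, the membrane lectin chaperone, where 7.27% of all genes passed and 5.69% were lower. Canx was at 87.0, 78.3 and 91.0 RPKM in WT and 65.5, 69.6 and 73.9 in Pad4-/-, so that no library overlapped. The means were 85.4 ± 6.49 and 69.7 ± 4.23 (SD, n = 3), a difference of -0.29 ± 0.07 log2 with adjusted p = 0.0265 (limma). That call was lost without WT library 1 (adjusted p = 0.0546), where Syvn1 passed instead at 0.48 (0.0356), WT library 3 (0.131), Pad4-/- library 1 (0.0664) or Pad4-/- library 2 (0.0556). It was also lost with quantile normalization (0.152), only the compared groups (0.331) and haemoglobin removed (0.201), and over all alternatives the adjusted p ran from 0.00703 to 0.331. Of the 46, 26 were below 0 and the median was -0.02 against -0.04 for all genes, with 3 of 46 at an unadjusted p under 0.05, where 23.8% of all genes were. Derl3, Creld2 and Xbp1 had values above 0 that did not pass. Of the plasma cell genes 11 of 11 were above 0 there, with a median of 0.51.

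Of the other 104 pathway genes tested, 1 was lower in Pad2-/-, Sec13, a COPII coat subunit (-0.30, adjusted p = 0.0355, limma), where 0.334% of all genes were. In Pad4-/- 2 were lower, Vcp (-0.22, adjusted p = 0.0426) and Bak1 (-0.41, adjusted p = 0.0181). That is a smaller share than the 5.69% of all genes that were lower there.

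**Figure D4:**
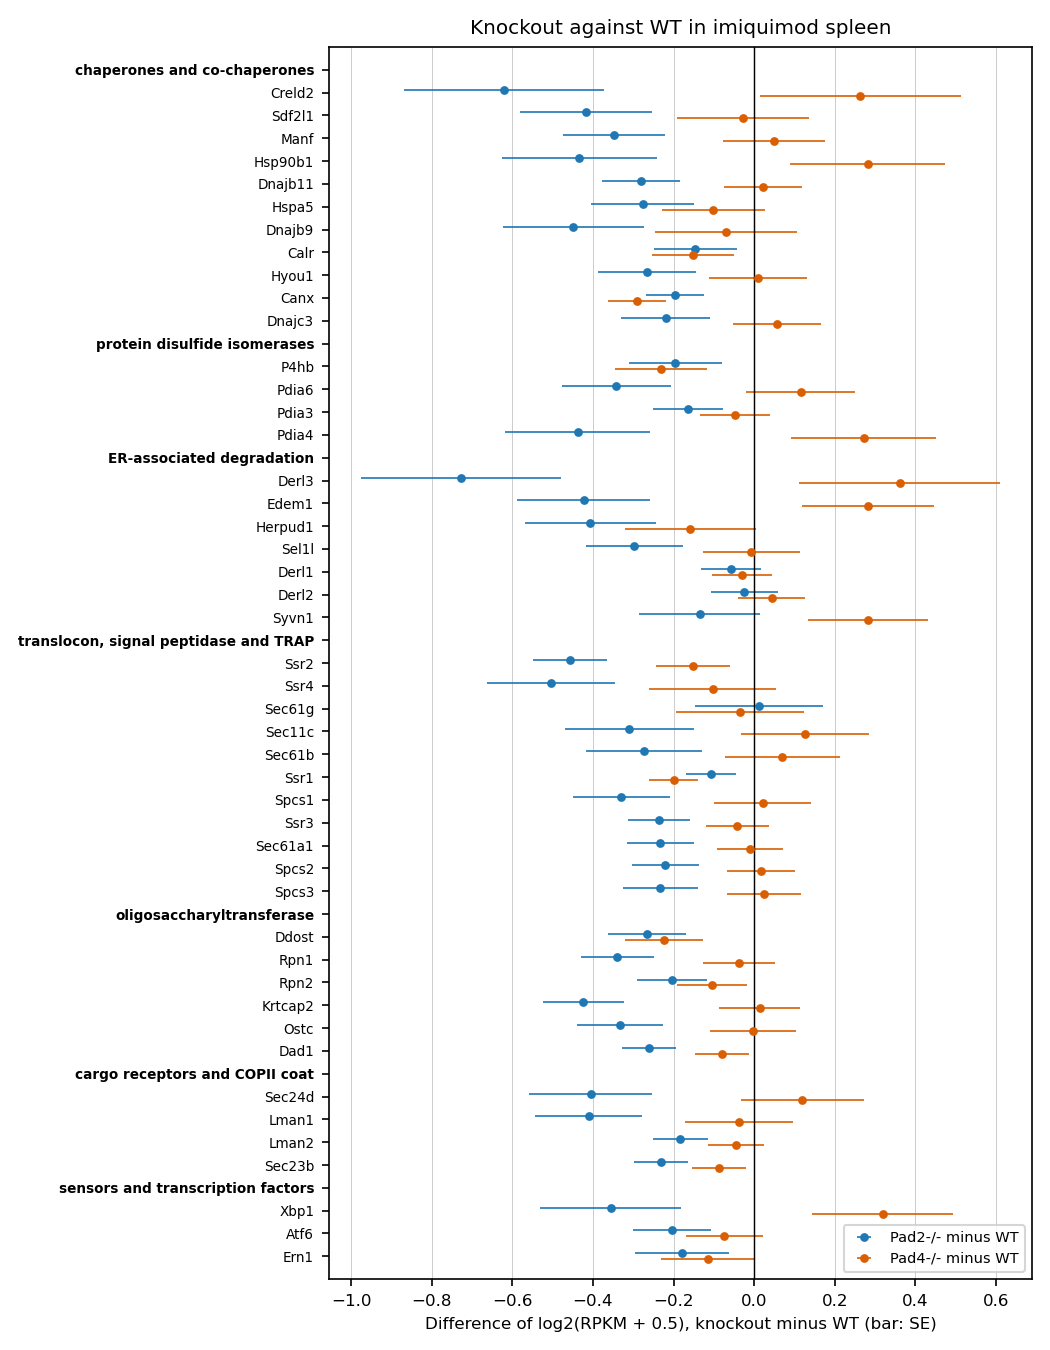
Difference in log2(RPKM + 0.5) between knockout and WT imiquimod spleens for each of the 46 genes, ordered by role; points are fitted differences for Pad2-/- and Pad4-/- and bars their standard errors. The Pad2-/- points lie below 0 in 45 of 46 cases and the Pad4-/- points on both sides.

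Whether the response itself differed was tested with an interaction term, the imiquimod response of a knockout minus that of WT. No gene of the set passed for either knockout (0 of 46 each, limma), where 0.0334% of all genes passed for Pad2-/- and 0.0668% for Pad4-/-. At an unadjusted p under 0.05 there were 10 and 2 of 46, against 7.81% and 14.4% of all genes. For Pad2-/- 45 of 46 values were below 0, with a median of -0.25 against -0.09 for all genes. As above, these genes moved together and are not separate observations. The lowest were Derl3 (-0.99 ± 0.35, adjusted p = 0.506), Sec24d (-0.61 ± 0.22) and Creld2 (-0.59 ± 0.35). For Pad4-/- the median was 0.05 against -0.08 for all genes, and Hsp90b1 had the highest value, 0.58 ± 0.27 with adjusted p = 0.348. Both contrasts share the WT libraries. With libraries weighted by their fit to the model, 33 genes of the set passed with a lower response in Pad2-/-, as did 11.7% of all genes. None of the other pathway genes passed for either knockout.

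In lymph node, where all libraries came from treated mice, no gene of the set passed between genotypes. In Pad2-/- against WT 0 of 46 passed, where 0.464% of 12285 genes did, and in the libraries labelled Pad4-/- 0 of 46, where 0.00814% did (limma). At an unadjusted p under 0.05 there were 2 of 46 in each, against 11.9% and 3.95% of all genes. No gene of the set was without overlap in either comparison, where 6.99% and 3.01% of all genes were. The Pad2-/- median was 0.01 against -0.12 for all genes, with 23 genes below 0. That of the libraries labelled Pad4-/- was -0.25 against 0.00, with 43 below 0. The genes moved together in lymph node too (median r 0.92), so counts below 0 are not counts of separate observations.

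The Pad2-/- lymph node libraries disagreed with each other. Xbp1 was at 202, 162, 618 and 641 RPKM in Pad2-/- libraries 1 to 4, against 279, 203, 185 and 161 in WT and 182, 192, 169 and 114 in the libraries labelled Pad4-/-. For Xbp1, libraries 3 and 4 thus lay far above the other 10, and libraries 1 and 2 within the WT range, which did not hold for every gene of the set. Creld2 was at 121, 123, 506 and 449 in Pad2-/-, against 114 to 286 in WT, and Derl3 at 39.0, 33.7, 93.1 and 93.2, against 31.9 to 52.9. Ssr4 was at 149, 142, 369.9 and 389 in Pad2-/-, against 124 to 162 in WT, and Sec11c, a catalytic subunit of the signal peptidase, at 131.2, 144, 311 and 344, against 144 to 192. Hspa5 followed less far, at 258, 274, 515 and 479 RPKM, while WT library 1 reached 521. In all, 17 of 46 genes were higher in Pad2-/- libraries 3 and 4 than in any of the other 10, and 42 were higher in each of them than in libraries 1 and 2. Against WT alone, 18 genes had libraries 3 and 4 above all WT libraries, and 22 had libraries 1 and 2 below all of them. The shares of all genes with these patterns are not given here. Over all genes tested the median SD of the log2 values was 0.250 in Pad2-/-, 0.140 in WT and 0.216 in the libraries labelled Pad4-/-.

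Plasma cell, B cell and granulocyte precursor genes also differed between these libraries. The other marker lists are not given by library here. The mean log2 level of the plasma cell genes was 5.12, 5.20, 5.84 and 5.70 in Pad2-/- libraries 1 to 4 and 5.24 to 5.65 in WT. That of the B cell genes was 6.14, 6.38, 5.55 and 4.92, against 6.17 to 6.60 in WT, and that of the granulocyte precursor genes 2.80, 1.31, 3.27 and 4.76, against 0.202 to 1.496. The granulocyte precursor level was thus above the WT range in library 1 too. The part of these marker genes in the spread was not tested. Without Pad2-/- libraries 3 and 4, a choice made after seeing the data, again 0 genes passed, the median was -0.27 and 44 of 46 values were below 0. Without Pad2-/- library 3, Pad2-/- library 4, WT library 3 or WT library 4 alone the median was -0.07, -0.04, -0.04 and -0.05, so that its sign rests on single libraries.

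Library 4 labelled Pad4-/- was the lowest of all 12 for 39 of 46 genes, with Hspa5 at 204 RPKM against 297 to 398 in the other libraries of that label, and it had the lowest plasma cell level, 4.87. WT library 1 was the highest of the WT libraries for 40 genes. How many of all genes were ordered in these ways is not given here. The lowest p-values in the libraries labelled Pad4-/- were those of Atf6 (-0.48 ± 0.18) and Ern1 (-0.52 ± 0.23), each with adjusted p = 0.9999 (limma). Without libraries 3 and 4 of that label, in which Padi4 goes against it, 0 genes passed, the median was -0.07 and 38 values were below 0. Leaving out library 4 of that label alone, or WT library 1 alone, gave a median of -0.15.

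**Figure D5:**
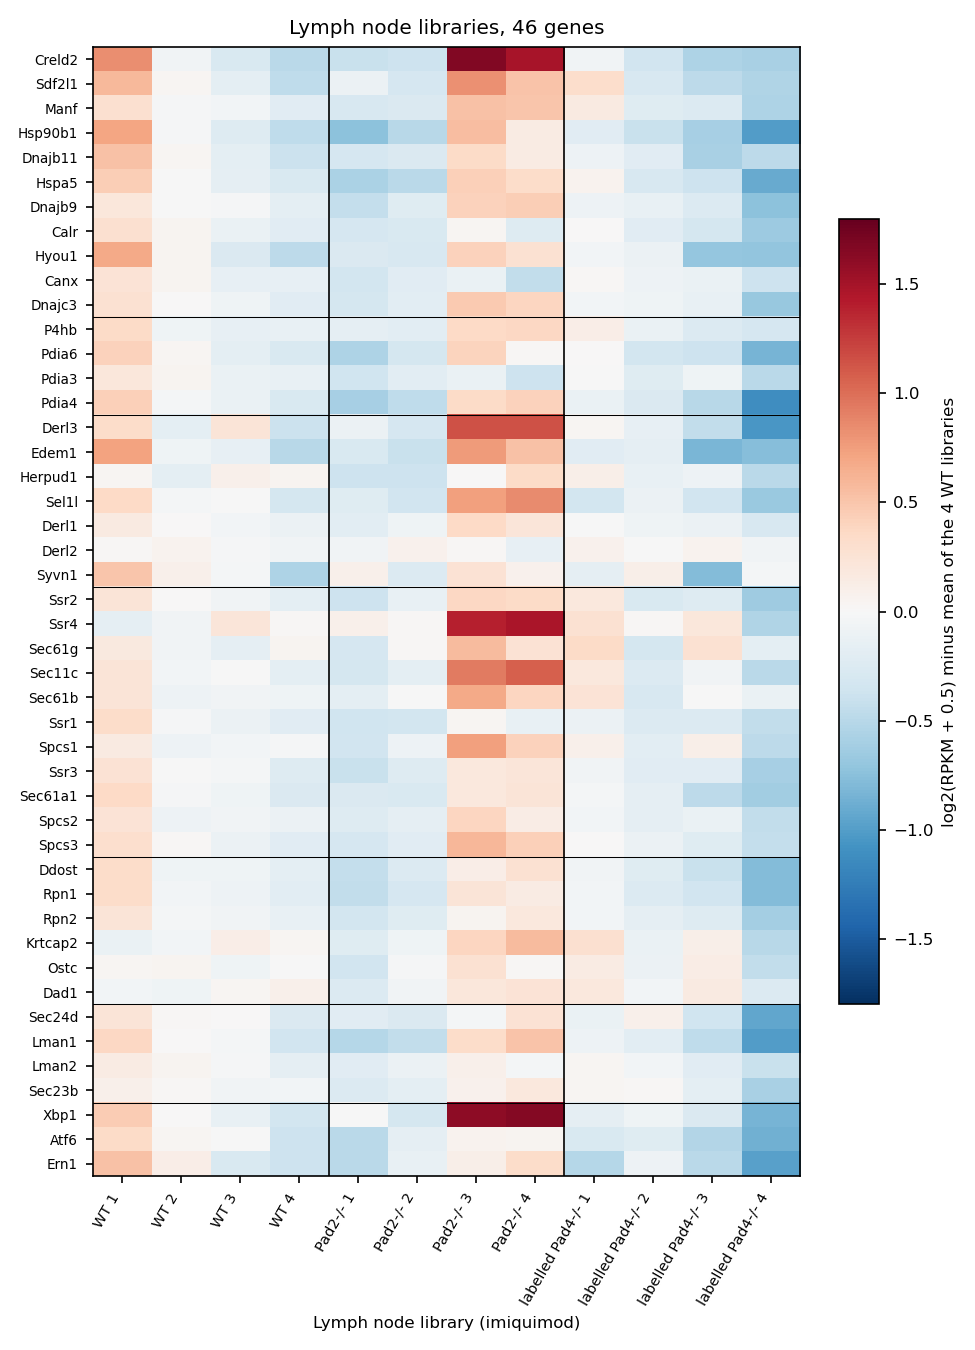
Heat map of log2(RPKM + 0.5) minus the mean of the 4 WT libraries for each of the 46 genes (rows, by role) in the 12 lymph node libraries (columns). Red marks Pad2-/- libraries 3 and 4, deepest for Xbp1, Creld2, Ssr4, Derl3 and Sec11c, and blue marks library 4 labelled Pad4-/-.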

How the data were processed

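RNA from frozen spleens and lymph nodes was poly(A)-enriched, prepared with the NEBNext Ultra II kit and sequenced on an Illumina HiSeq, per the labels' protocols. The authors deposited RPKM values, reads scaled by transcript length and mapped reads, in 1 table per tissue. Per the submitters' processing notes, bcl2fastq 1.17.1, TopHat2 2.1.0 and the mm10 build were used, with quantifier, annotation and strand setting not given in the sources used here. RPKM holds no read counts, so no depth and no counting error can be stated, and RPKM is relative, so that abundant haemoglobin lowers the other genes of a library. The 30 libraries held 0 identical pairs.

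Groups come from the genotype, agent and tissue labels. The test was that of limma 3.58.1 (R 4.3.3, lmFit and eBayes with an intensity trend, two-sided) on log2(RPKM + 0.5), which understates the change of low genes. All groups of a tissue entered 1 fit. A gene was tested where 3 spleen or 4 lymph node libraries reached 1 RPKM, 11982 and 12285 genes, with Benjamini-Hochberg adjustment over all of them and a threshold of 0.05. "Rose" and "fell" mean past it. The model was tested on simulated data. The gene set and all lists were chosen with earlier results of these data known. All 46 genes could be named; group values are given for the 5 largest rises and falls of a comparison, every library for Hspa5, Xbp1, Derl3 and the largest WT response of each role, and the 2 largest changes from each other list. Promoters are from RefSeq GRCm38.p6. Alternatives were pseudocounts, filters, normalizations, fits with weights, with a replicate block or with the compared groups alone, and leaving out libraries; haemoglobin removal and the 2 exclusions of libraries that stand apart were chosen after seeing the data.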

Additional observations from a re-analysis of the deposited data

Results flagged for a closer look

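Among 141 group tests in lymph node, 5 gene values, from 2 libraries, lay far from the others of their group. Chance flags about 1 in 20 groups, so 5 flags are no more than that rate would give. WT library 1 stood above the other 3 WT libraries for P4hb (130 RPKM), Sec61b (244 RPKM), Spcs2 (90.2 RPKM) and Ddost (137 RPKM). This library was the highest of the WT libraries for 40 of 46 genes, so these flags are not separate observations. Library 4 labelled Pad4-/- stood below the other libraries of its label for Dnajc3 (23.96 RPKM).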

How the results depend on the processing

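The count of genes of the set that passed under imiquimod, higher or lower, stayed within 1.5 times its main value under every alternative run. It was 36 to 45 of 46 over the 3 genotypes, where 70.0% to 73.5% of all genes passed in the main fits. The 0 counts in Pad2-/- control spleen, in the Pad4-/- interaction and in lymph node stayed 0. In Pad4-/- control spleen 8 genes passed with only the compared groups and 4 with library weights. For Pad2-/- against WT under imiquimod the count of 1 became 0 with quantile normalization, median-ratio scaling, only the compared groups, no intensity trend, the replicate block and haemoglobin removed. It was 40 with library weights, and leaving out 1 library gave 0 to 5. For Pad4-/- against WT under imiquimod the count of 1 became 2 with no filter and with the stricter filter, and 0 with quantile normalization, only the compared groups and haemoglobin removed. Leaving out 1 library gave 0 to 1. The Pad2-/- interaction gave 33 with library weights. With haemoglobin removed, Derl2 (-0.21) and Sec23b (-0.024) reversed in WT. The cause was not tested. Correlations of same-numbered libraries, taken on deviations from group means, ran from -0.478 to 0.612. With so few libraries per group they cannot settle whether same-numbered libraries were paired or handled together. Apart from the change given above, the replicate block moved the Pad4-/- imiquimod count from 45 to 44. Unknown depth limits what can be said of the low genes Sec24d, Ern1 and Derl3.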
